A study of Mus musculus with 2 samples.

Results

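Mouse miR-129 is made from 2 hairpin precursors, Mir129-1 and Mir129-2, and both were counted in microRNA sequencing of the embryonic hindbrain. These 2 genes, of 1973 listed in the deposited tables, are described here. They were chosen by their symbols, and as a pair selected on measured values: their counts differed between the libraries of the series, and the ratio of the hairpins within and between libraries is part of the choice. All levels and ratios of Mir129-1 and Mir129-2 below are therefore descriptions, with no test. The series holds 1 group, the hindbrain of healthy B6NCrl mice at embryonic day 16.5, with males and females pooled. It has 2 biological replicates, each a pool of embryos with its own library. The labels give 37 embryos for replicate 2, and the number for replicate 1 is not given in the sources used here. There is no treatment and no genetic change, so no conditions were compared.

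A microRNA hairpin is cut into a short duplex, and an arm of it, the 5p or the 3p strand, guides Argonaute to messenger RNAs that pair with its seed, bases 2 to 8. miR-129 is enriched in the nervous system and best known from neurons, where miR-129-5p represses the messenger of the potassium channel Kv1.1 and takes part in the homeostatic downscaling of synapses. The hindbrain forms the medulla, pons and cerebellum.

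The hairpins decide which reads can be told apart, and they are shown first for that reason. Both are RefSeq sequences of GRCm38.p6 (mm10), written 5′ to 3′, and capitals mark the stretches that are identical in both hairpins.
Mir129-1: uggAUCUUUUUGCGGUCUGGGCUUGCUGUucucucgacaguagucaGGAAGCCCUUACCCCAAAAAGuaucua
Mir129-2: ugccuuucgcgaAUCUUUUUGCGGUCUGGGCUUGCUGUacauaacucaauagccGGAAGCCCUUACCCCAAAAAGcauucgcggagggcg

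Mir129-1 is 73 nt long and Mir129-2 is 90 nt long. The first identical stretch has 26 nt and holds the whole 5p arm. The second has 21 nt and holds most of the 3p arm. Between them lie 17 nt in Mir129-1 and 16 nt in Mir129-2, which differ, as do the outer ends of the stems. The mature arms that RefSeq lists follow, with the seed in capitals. miR-129-5p is listed under both hairpins, and miR-129-2-3p under Mir129-2.
miR-129-5p: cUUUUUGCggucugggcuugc
miR-129-2-3p: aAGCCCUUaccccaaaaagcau

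The 5p arm is the same 21 nt from either hairpin. A read that starts at the first base of miR-129-5p is identical for both loci up to 24 nt, and differs only from 25 nt on. Against the Mir129-1 hairpin, miR-129-2-3p has 1 mismatch, C20U, with positions counted from 1 at the 5′ end of the arm (Mir129-2 has C and Mir129-1 has U). A read from the first base of the 3p arm is thus identical up to 19 nt and differs from 20 nt on. Of the 52 windows of 22 nt in Mir129-1, 5 also occur in Mir129-2, and the same 5 are shared among the 69 windows of Mir129-2. From 27 nt on no window is shared. No window of 18 to 29 nt of either hairpin occurs in another RefSeq mouse hairpin, among 1005 searched on the sense strand. Whether these windows occur elsewhere in the genome was not tested.

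These sequence differences bear on what the counts hold. Reads that fit several places were not assigned to a gene by the authors and appear only as a total, 34.5% of all reads in replicate 1 and 35.1% in replicate 2. The count tables do not say which arm a counted read came from. A 5p read of up to 24 nt fits both loci, so the counts of Mir129-1 and Mir129-2 are those of reads that fitted 1 place and do not measure the amount of miR-129-5p. The part of the shared 5p arm in the multimapping reads was not tested.

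The seeds set the pair apart from other listed microRNAs. Among 1738 mature entries of 1058 mouse hairpins in RefSeq, the seed UUUUUGC was found under Mir129-1 and Mir129-2 alone. The seed AGCCCUU was found under Mir129-2 alone, since RefSeq lists no 3p arm under Mir129-1. The Mir129-1 hairpin holds the same first 19 bases of this arm, the seed included. So no other counted hairpin is known from this table to carry a miR-129 seed.

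**Figure D1:**
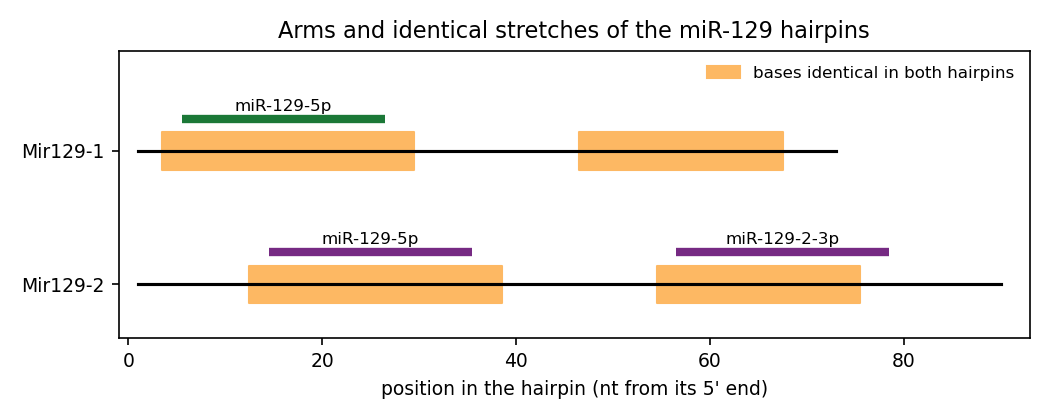
Map of the miR-129 hairpins, drawn to scale in nt from the 5′ end of each hairpin. Orange blocks are the identical stretches of 26 and 21 nt, and thick bars are the mature arms that RefSeq lists. The 5p arm lies inside a block in both hairpins, while the end of miR-129-2-3p runs past its block.

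The hairpins lie on different chromosomes in unlike host genes. Mir129-1 (ENSMUSG00000065469.1) lies on chromosome 6 from 29022619 to 29022691 (mm10, plus strand), wholly within exon 2, the last exon, of the long noncoding gene Gm3294 in GENCODE M21. Mir129-2 (ENSMUSG00000065511.1) lies on chromosome 2 from 94241364 to 94241453 (minus strand), in the long noncoding gene Mir670hg. Of the 7 transcripts of Mir670hg, 3 span Mir129-2, and it lies in an intron of each. A further entry of GENCODE M21, Mir129b, lies on the plus strand across Mir129-2, from 94241378 to 94241442, and had no entry of its own in the tables. The opposite strand of Mir129-2 held 2 counts in replicate 1 and 2 in replicate 2, and that of Mir129-1 held 0 in both. The opposite strand of Mir129-2 is that of Mir129b.

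The libraries held 5097205 and 4460836 sense counts, and 680 and 667 genes had at least 1. Brain and hindbrain markers were present, with 2474 and 2082 counts for Mir9-3, 9157 and 7199 CPM for Mir137, and 63004 and 57854 CPM for Mir10a, a microRNA of the Hox clusters, in replicates 1 and 2. Mir124a-1, a hairpin of a neuronal microRNA with several copies, had 22 and 13 counts. Its copies Mir124a-2 and Mir124a-3 had 11 and 3 counts, and 1 and 2 counts. Mir9-2, another copy beside Mir9-3, had 4 and 5 counts. The part of multimapping reads in these low counts was not tested.

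Mir129-1 had 707 counts in replicate 1 and 877 in replicate 2. As counts per 1000000 sense counts of the library (CPM) this was 139 CPM (exact binomial 95% interval 129 to 149) in replicate 1 and 197 CPM (184 to 210) in replicate 2. The mean was 168 ± 40.9 CPM (SD, n = 2). The intervals of the libraries do not overlap. All intervals cover counting error only, since no molecular identifiers are recorded in the sources used here and several reads can stem from 1 molecule. By mean level Mir129-1 ranked 183 of 1894 named genes, near the median of 150 CPM over the 385 genes with at least 10 counts in both libraries.

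Mir129-2 had 1639 counts in replicate 1 and 2551 in replicate 2. This was 322 CPM (exact binomial 95% interval 306 to 337) in replicate 1 and 572 CPM (550 to 594) in replicate 2, with a mean of 447 ± 177 CPM (SD, n = 2). Again replicate 2 was the higher library, and the intervals do not overlap. Mir129-2 ranked 132 by mean level, 150 in replicate 1 and 123 in replicate 2. Mir129-1 moved in the same direction, from rank 200 in replicate 1 to rank 168 in replicate 2.

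**Figure D2:**
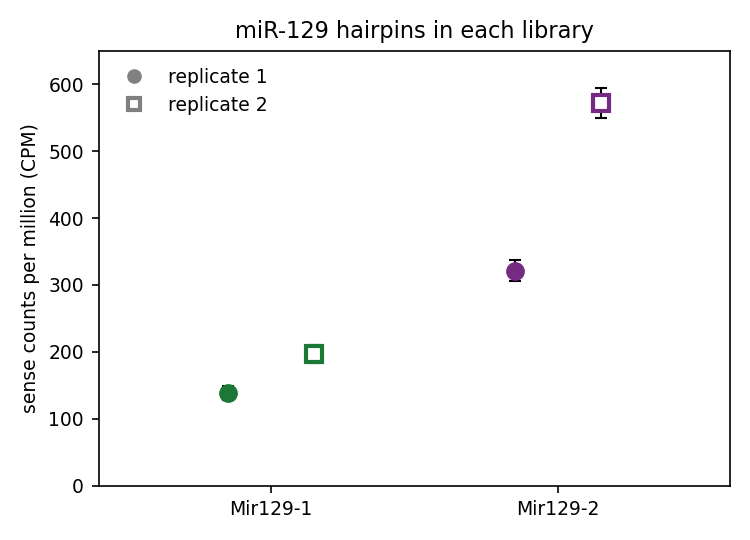
Level (CPM) of Mir129-1 and Mir129-2 in each library. Points are single libraries (filled circle, replicate 1; open square, replicate 2) and bars are exact binomial 95% intervals, partly hidden by the symbols; both hairpins are higher in replicate 2, and Mir129-2 lies above Mir129-1 in both libraries.

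Genes of like level give a scale for the difference between the libraries. Nearest to Mir129-1 were Mir181a-2 (166 ± 6.40 CPM), the myeloid Mir223 (170.1 ± 25.9 CPM) and Mir483 of the Igf2 gene (170.3 ± 49.1 CPM; SD, n = 2 for each), with log2 ratios of replicate 2 over replicate 1 of -0.08, -0.31 and -0.60. Nearest to Mir129-2 were Mir540 (444 ± 17.5 CPM), Mir485 (429 ± 27.6 CPM) and Mir217 (422 ± 3.67 CPM; SD, n = 2 for each). Their ratios on the same scale were -0.08, 0.13 and 0.02, and TMM scaling adds 0.06 to each. All 6 lay below the log2 ratios of the miR-129 hairpins, which follow and which served to choose the pair.

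Within each library Mir129-2 held most of the counts of the pair. It supplied 69.9% of 2346 miR-129 counts in replicate 1 (exact binomial 95% interval 68.0% to 71.7%) and 74.4% of 3428 in replicate 2 (72.9% to 75.9%). The ratio of Mir129-2 to Mir129-1 counts was 2.32 in replicate 1 (2.12 to 2.54) and 2.91 in replicate 2 (2.69 to 3.14). The mean log2 ratio was 1.38 ± 0.23 (SD, n = 2). This ratio needs no scaling of the libraries, and the intervals of the libraries do not overlap. Counts are per hairpin and were not divided by length, because such libraries read arms, not whole hairpins. The hairpins have different numbers of distinguishing windows, 47 of 52 in Mir129-1 and 64 of 69 in Mir129-2 at 22 nt, and the part of this in the ratio was not tested.

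Both hairpins were higher in the replicate 2 library. Mir129-2 was 1.78-fold higher on CPM (exact binomial 95% interval 1.67 to 1.89), a log2 ratio of 0.83 (0.74 to 0.92). Mir129-1 was 1.42-fold higher (1.28 to 1.57), a log2 ratio of 0.50 (0.36 to 0.65). The pair together had 460 CPM in replicate 1, against 768 CPM in replicate 2, 1.67-fold more. Mir129-2 supplied 81.2% of this excess, 250.3 CPM against 57.9 CPM for Mir129-1. Each figure compares 1 library with 1 other, so there is no replicate check. Fewer cells that make these hairpins in a pool cannot be told apart from fewer counted reads of the hairpins per cell.

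The whole profile gives the background to these ratios. Of 401 genes whose counts summed to 20 or more, 14 were at least 1.5-fold higher in replicate 2, which is 3.49%, and 27 were at least 1.5-fold higher in replicate 1, which is 6.73%. Of the miR-129 hairpins, Mir129-2 passed this fold, and Mir129-1 did not, although its interval reaches past it. Since the contrast served to choose the pair, nothing is read from that count. The median log2 ratio over the 401 genes was -0.07 and the median absolute value 0.19. Mir129-2 stood in place 7 and Mir129-1 in place 21 by log2 ratio.

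Most genes above Mir129-2 in that order had few counts. By ratio the first of these 6 was Mir5126, with 22 and 64 counts in replicates 1 and 2. Then came Mir3085 (8 and 16), Mir1231 (7 and 13), Mir511 (8 and 14), Mir3094 (11 and 18) and Mir3097 (30 and 48). Of the 6 intervals, 4 included a ratio of 1. Among the 216 genes with a mean of at least 100 CPM, Mir129-2 had the highest log2 ratio, followed by Mir195a and then Mir129-1. At this level Mir129-2 was the single gene at least 1.5-fold higher in replicate 2, while with TMM scaling Mir195a also passed that fold. Of the 216 genes, 4 were at least 1.5-fold higher in replicate 1. As the pair was chosen on this contrast, nothing is read from its places in these orders.

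**Figure D3:**
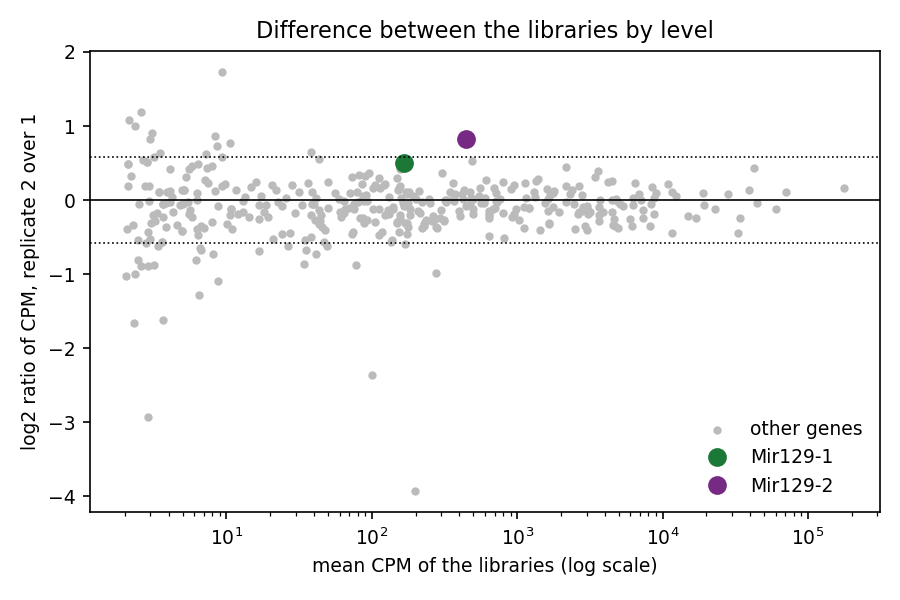
Log2 ratio of CPM, replicate 2 over replicate 1, against mean CPM (log scale) for the 401 genes whose counts summed to 20 or more. Dotted lines mark 1.5-fold in each direction; Mir129-2 at 0.83 lies above all genes of similar or higher level, and Mir129-1 at 0.50 lies just under the upper line.

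Few genes with a mean of at least 100 CPM had a ratio close to that of the pair. The nearest to Mir129-1 were Mir195a of the miR-15/16 family with a log2 ratio of 0.52 (401.8 CPM in replicate 1 and 578 CPM in replicate 2), Mir433 with 0.45 (1842 and 2512 CPM) and Mir487b with 0.43 (36267 and 48966 CPM). Mir433 and Mir487b belong to the imprinted Dlk1-Dio3 region. So do Mir485 and Mir540, with log2 ratios of 0.13 and -0.08, so the ratio is not shared across that region. The nearest to Mir129-2 were Mir195a, Mir129-1 and Mir433, at distances of 0.31, 0.33 and 0.38 on the log2 scale. With 2 libraries this likeness rests on a single difference per gene.

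The split between the hairpins also shifted. The log2 ratio of Mir129-2 over Mir129-1 was 1.21 in replicate 1 and 1.54 in replicate 2, a shift of 0.33 (exact conditional 95% interval 0.16 to 0.50). The interval covers counting error in the 2 libraries and not the spread of such ratios among pools, which 2 pools cannot show well.

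For comparison, RefSeq lists 64 pairs of mouse hairpins that share a mature arm, and 17 of them, miR-129 included, had at least 10 counts for both hairpins in both libraries. Their mean log2 ratios ranged from -4.65 for Mir181a-2 over Mir181a-1 to 6.68 for Mir181b-2 over Mir181b-1, and 9 of the other pairs were counted more unequally than miR-129. The median absolute shift was 0.10, and 11 of the 17 pairs shifted by less than 0.15. The miR-129 pair had the second largest shift of the 17. The largest, 0.41 for Mir199b over Mir199a-2, had an interval of -0.39 to 1.23, because Mir199a-2 had 42 and 23 counts. Among the 14 pairs with at least 100 counts for each hairpin and library, the miR-129 shift was the largest, followed by Mir181a-2 over Mir181a-1 at -0.32 (-0.46 to -0.17), Mir135a-2 over Mir135a-1 at -0.28 (-0.47 to -0.09) and Mir218-2 over Mir218-1 at -0.26 (-0.65 to 0.14). The intervals of Mir129 and of these pairs overlap in size once the sign is left aside. The minimum of 100 counts was added to the set minimum of 10, and it leaves out Mir199b over Mir199a-2. As the miR-129 pair was chosen on this ratio, nothing is read from its place in either order.

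The direction of the copies was compared as well. Both hairpins were higher in replicate 2 in 3 of the 17 pairs, namely miR-129, the neuronal Mir128-1 and Mir128-2, and Mir26a-1 and Mir26a-2. Both were lower in 13 pairs and 1 pair was split. Of the 216 genes with a mean of at least 100 CPM, 83 were higher in replicate 2, so most genes were lower there too. With TMM scaling, the 3 pairs were the same, 10 pairs were lower and 4 were split. Mir128-1 and Mir128-2, with log2 ratios of 0.19 and 0.29, came next to the miR-129 pair. Mir26a-1 and Mir26a-2, with 0.13 and 0.14, rested on 25 and 107 counts in replicate 1. As the miR-129 pair was chosen on this contrast, nothing is read from its direction.

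**Figure D4:**
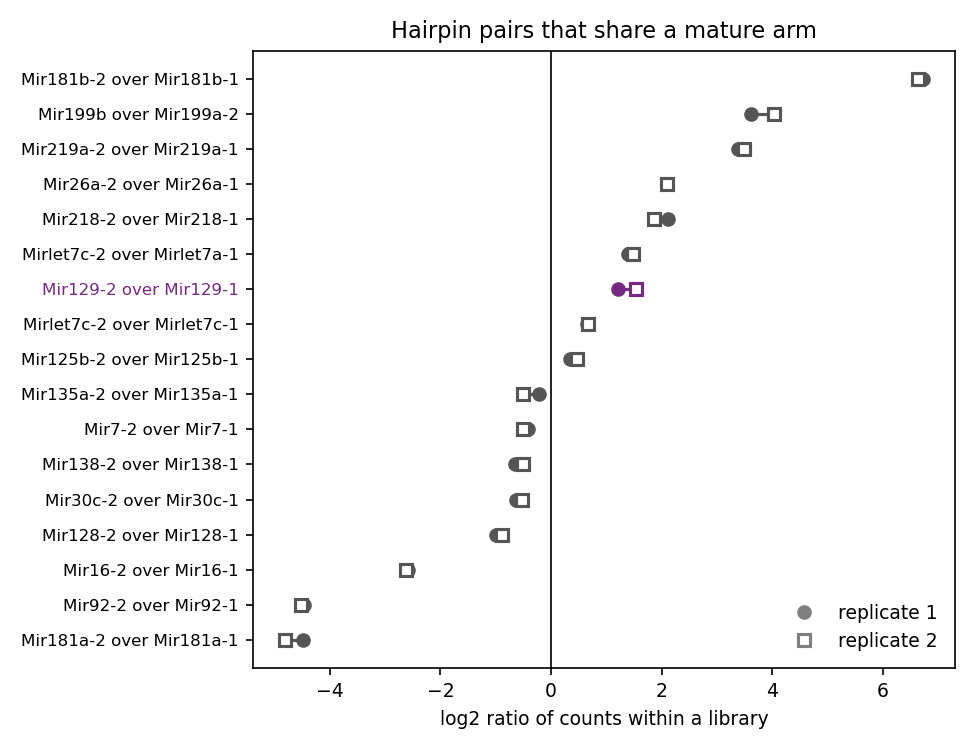
Log2 ratio of counts within a library for the 17 hairpin pairs that share a mature arm (filled circle, replicate 1; open square, replicate 2; the line joins the libraries). The miR-129 pair, in purple, moves from 1.21 to 1.54, while 11 of the 17 pairs move by less than 0.15.

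A neighbour in the same host gene had nearly equal levels in the libraries. Mir670, on the same strand 19847 bp from Mir129-2 within Mir670hg, had 331 counts (64.9 CPM) in replicate 1 and 287 counts (64.3 CPM) in replicate 2. Its log2 ratio was -0.01 (exact binomial 95% interval -0.25 to 0.22). The ratio of Mir129-2 to Mir670 was 4.95 in replicate 1 and 8.89 in replicate 2, a log2 shift of 0.84 (0.59 to 1.09). Nearly all of this shift is the log2 ratio of 0.83 of Mir129-2 itself, which served to choose the pair. Mir670 was named after its values were seen, so nothing is read from the shift. Of the 7 transcripts of Mir670hg, 5 span Mir670 and 3 span Mir129-2, and Mir670 overlaps an exon of 1 transcript. Whether both hairpins come from the same transcript was not tested. The other listed microRNA of the host, Gm23630, had 0 counts in both libraries, a count that leaves room for at most 0.589 CPM (replicate 1) or 0.673 CPM (replicate 2). No other microRNA gene lies within Gm3294, so no such neighbour was there for Mir129-1.

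Other microRNAs of neurons ranged from lower to higher in replicate 2. Of 36 neuron-enriched microRNA genes on a list, 35 had an entry and 32 were among the 401. Their median log2 ratio was -0.03, against -0.07 over all 401 genes, and 13 of the 32 were above 0. At least 1.5-fold higher were 0 in either library, against 3.49% (replicate 2) and 6.73% (replicate 1) of all genes, and with shares this low nothing is read from a count of 0. The most abundant were Mir149 (19034 ± 935 CPM), Mir137 (8178 ± 1384 CPM), Mir135b (6299 ± 213 CPM) and Mir598 (4497 ± 3.25 CPM; SD, n = 2 for each), with log2 ratios of 0.10, -0.35, -0.07 and 0.00. The ratios of the 32 ran from -0.57 for Mir124a-1, which rests on few counts, and -0.44 for Mir218-2 to 0.45 for Mir433. Below the minimum summed count, and outside this range, lay Mir9-2 (4 and 5 counts in replicates 1 and 2), Mir124a-2 (11 and 3) and Mir124a-3 (1 and 2). Of the 32, 0 exceeded Mir129-1, and since the contrast served to choose the pair, nothing is read from this.

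A second list held microRNAs of synaptic scaling, dendrites and excitability, the processes for which miR-129-5p is known. It overlaps the neuron-enriched list. Mir132, Mir134, Mir137, Mir212, Mir485 and the copies of Mir124a, Mir128, Mir138 and Mir218 are on both, so the lists do not give separate results. Of 27 listed genes 25 had an entry and 23 were among the 401. The median log2 ratio was -0.10, with 0 genes at least 1.5-fold higher in either library, against the same 3.49% and 6.73% of all genes. The most abundant were Mir335 (34205 ± 4030 CPM), Mir137, Mir22 (6441 ± 746 CPM) and Mir381 (4895 ± 16.7 CPM; SD, n = 2 for each), with log2 ratios of -0.24, -0.35, 0.24 and -0.01. Among the 23, the lowest was again Mir124a-1 at -0.57, and the highest Mir34a at 0.42. Mir124a-2 and Mir124a-3 lay below the minimum summed count here too. Mir485, which acts at synapses and was near Mir129-2 in level, had 410 and 449 CPM in replicates 1 and 2.

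Muscle and Hox-cluster microRNAs, in contrast to the miR-129 hairpins, had larger sums in replicate 1. The 9 counted muscle microRNAs had a sum of 402 CPM in replicate 1, against 44.6 CPM in replicate 2. Of these, 5 were among the 401, and 0 of the 5 were higher in replicate 2. At least 1.5-fold higher in replicate 1 were 3 of the 5, against 6.73% of all genes. Mir133b, among these 3, had 26 counts in replicate 1 and 3 in replicate 2, and so passed the minimum summed count only through replicate 1. Below the minimum lay Mir208a, which was higher in replicate 2 with 4 and 9 counts, and Mir1a-1, Mir133a-1 and Mir133a-2, at 0 in both. As the minimum shaped which genes entered, nothing is read from the counts out of 5. The sum was mainly Mir206, at 370 and 24.2 CPM, followed by Mir208b, Mir499 and Mir133b. The 6 microRNAs of the Hox clusters had a sum of 102416 CPM in replicate 1, against 86869 CPM in replicate 2, led by Mir10a, Mir10b, Mir615 and Mir196b, with log2 ratios of -0.12, -0.44, -0.38 and -2.36. Mir196b, of the posterior Hox positions, had 169 and 32.7 CPM, and was the 1 of 5 Hox microRNAs among the 401 that passed 1.5-fold, where 6.73% of all genes did so in this direction. Mir196a-2 of the same family went the other way, with 25 and 30 counts and a log2 ratio of 0.46, and Mir196a-1 was at 0 in both. The muscle list made up 0.0402% of sense counts in replicate 1 and 0.00446% in replicate 2. The part of the makeup of the pools in the miR-129 difference was not tested.

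Glial, choroid plexus, blood and vessel microRNAs were close in sum. The 10 glial and choroid plexus genes had 11722 CPM in replicate 1 and 12154 CPM in replicate 2, with 0 of 10 at least 1.5-fold apart, against 3.49% and 6.73% of all genes. Their log2 ratios ran from -0.43 for the oligodendrocyte Mir219a-1 to 0.39 for Mir204 of the choroid plexus. Mir449a, Mir34c and Mir219a-2 were the other most abundant of these. The 9 blood and vessel genes had 35340 and 37039 CPM, led by the endothelial Mir126a, Mir143, Mir223 and Mir145a. No member of either list was at 0 in both libraries.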

How the data were processed

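Small RNA (under 30 nt, per the labels) of 2 pools of hindbrain was sequenced. The deposited tables hold raw read counts for each gene, made by the authors on mm10 with GENCODE M4, per the text deposited with each sample. The sources used here do not name the aligner or counter. Column 3 of each table holds the sense strand. The 4 summary lines stayed out of the totals. Identifiers were matched without version to GENCODE M21, and 1894 of 1973 matched.

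CPM is the count per 1000000 sense counts. Intervals are exact 95% binomial intervals, or exact conditional ones for ratios of counts, and a count of 0 was taken to allow up to 3 counts. With 1 library on each side no test was made. The ratio function was tested on simulated data. Alternatives were unstranded counts, TMM (edgeR 4.0.16), DESeq2 1.42.0 size factors, other totals, other count minimums, 0.5 added counts and each replicate alone. Named genes were the 3 nearest in level and in ratio, the 5 pairs of largest shift and the 4 most abundant of each list. Listed symbols with no entry were looked up among RefSeq synonyms, which found 2. Members, lists and rules were chosen with earlier results of these data known. Others named (genes at list extremes, markers, Mir670) were chosen after their values were seen. Sequences come from RefSeq (GRCm38.p6), where 869 of 1005 hairpins matched a counted gene. Software was R 4.3.3 and Python 3.11.15 with scipy 1.17.1, pandas 2.3.3, matplotlib 3.10.9 and numpy 2.4.6.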

Additional observations from a re-analysis of the deposited data

How the results depend on the processing

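Of 39 alternative values for 7 results, 35 stayed within the limits that follow, and no ratio changed sign. The limit was the SD for levels and the mean log2 ratio, and the interval for the other ratios. For the count of genes it was 1.5-fold of the reported count. With 2 libraries, a single replicate always lies within the SD of the mean, so the values for each replicate alone are no check. With multimapping reads in the total, the mean level fell to 95.4 CPM for Mir129-1 and 254 CPM for Mir129-2, since the total is larger. The count of genes at least 1.5-fold higher in replicate 2 was 86 with no minimum summed count and 3 with a minimum of 100, against 14, as the settings differ in how many genes are tested. The log2 ratio of replicate 2 over replicate 1 ranged from 0.49 to 0.57 for Mir129-1 and from 0.82 to 0.90 for Mir129-2 over scaling, strand, total and added counts. With each replicate alone, the level ranged from 138.7 to 196.6 CPM for Mir129-1 and from 322 to 572 CPM for Mir129-2, and the log2 ratio of Mir129-2 over Mir129-1 from 1.21 to 1.54. No paired analysis was possible because the series has 1 group. Depth limits the pair little, with at least 707 counts for each hairpin, while 2 pools limit what can be said of the spread among pools.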
